A study of Mus musculus with 8 samples.

Results

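The genes described are the core of interferon signalling: the ligands interferon beta (Ifnb1) and interferon gamma (Ifng), the receptor chains Ifnar1, Ifnar2, Ifngr1 and Ifngr2, the Janus kinases Jak1, Jak2 and Tyk2, and the inhibitor Socs1. These 10 genes were taken by their symbols from a table of 45777 genes. Of them, 8 had enough reads to be tested, among 17975 genes tested in all. RNA was sequenced from primary hepatic stellate cells, the vitamin A-storing pericytes of the liver that become collagen-producing myofibroblasts, isolated from male wild-type C57BL/6 mice. In the siControl group (4 libraries) the cells were transfected with a control siRNA, and in the siPAK4 group (4 libraries) with an siRNA against Pak4, a kinase of the actin cytoskeleton, during the activation of the cells. No interferon treatment is named in the labels, age and time after transfection are not given, and all 8 libraries are labelled batch 1. Where the replicates came from (animals, isolations or dishes) is not stated. The p-values therefore rest on library-to-library variation that could be purely technical.

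Interferons are secreted alarm signals. Type I interferons, interferon beta among them, are made by many cell types after their sensors meet viral or misplaced nucleic acid, and act through IFNAR1 and IFNAR2, which carry TYK2 and JAK1. Interferon gamma is made mainly by T and NK cells and acts through IFNGR1 and IFNGR2, which carry JAK1 and JAK2. The kinases activate STAT proteins, which switch on the interferon-stimulated genes, for type I interferons together with IRF9. SOCS1, itself an interferon-induced protein, binds the kinases and shuts them down.

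Sequencing depth was even: counts summed to between 57297561 and 61535063 per siControl library and between 55728583 and 59205049 per siPAK4 library. Pak4 had 1028, 993, 964 and 915 reads in siControl libraries 1 to 4 and 447, 335, 311 and 393 reads in siPAK4 libraries 1 to 4 (edgeR's quasi-likelihood test, log2 fold change −1.44, adjusted p 9.4e-06), so the libraries follow their labels. The stellate label was checked against marker lists. The stellate genes Dcn (425 ± 32.4 CPM, SD, n = 4 siControl libraries) and Col1a1 (328 ± 77.1 CPM) were abundant, whereas Lrat, the retinol-esterifying enzyme of quiescent stellate cells, was at 0.0269 ± 0.0342 CPM. CPM values are read counts scaled to edgeR's TMM-adjusted library size. The macrophage gene Lyz2 (7815 ± 532 CPM) and the endothelial gene Cdh5 (1620 ± 77.1 CPM) were higher than any of these. Transcripts typical of other cell types were thus present in quantity. In siPAK4 libraries Lrat was at 0.216 ± 0.105 CPM, still too low to be tested. Col1a1 was lower there (122 ± 32.7 CPM, adjusted p 0.0014), whereas Dcn was at 479 ± 52.9 CPM (adjusted p 0.15). In bulk RNA, fewer cells of a type, less RNA per cell and lower expression of the marker genes themselves cannot be told apart. Among all 17975 genes tested, 12.4% were higher and 14.5% lower in siPAK4 libraries at an adjusted p under 0.05. From siControl to siPAK4, the summed level of 14 macrophage markers ranged from 9665 to 11125 CPM and then from 5479 to 8768 CPM, with 0 of 13 tested markers higher and 9 lower. That of 12 endothelial markers ranged from 6487 to 6721 CPM and then from 3918 to 5729 CPM, with 3 higher and 5 lower. That of 15 stellate markers ranged from 992 to 1219 CPM and then from 802 to 975 CPM, with 1 of 14 tested markers higher and 6 lower. That of 11 hepatocyte markers, nearly all of it Trf, ranged from 360 to 376 CPM and then from 223 to 334 CPM. Of 7 tested hepatocyte markers, 3 were higher and 1 lower. The 1 that fell was Trf (363 ± 6.88 to 286 ± 49.2 CPM, adjusted p 0.033). Alb, at a far lower level, rose from 1.75 ± 0.563 to 7.83 ± 2.96 CPM (adjusted p 0.00031). Most of the macrophage sum was Lyz2. The part of these shifts in the results that follow was not tested.

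The stretches just upstream of 3 genes are shown because the genes rose, or had more reads, in siPAK4 libraries and their windows hold the core of an element known from interferon induction or signalling. They were chosen after the values were seen. Each is the 250 bases before the annotated start, 5′ to 3′ on the gene's own strand, from RefSeq on GRCm38.p6 (mm10), with motif matches in capitals. All 10 genes were matched to RefSeq. Motifs were searched on both strands. Positions are counted back from the annotated start. The Ifnb1 window (chr4:88522795-88523044, minus strand) holds GGGAAATTCC, a kappaB core, from 116 to 107 bases before the start. The Ifnar2 window (chr16:91372533-91372782, plus strand) holds TTCCTGGAA, a gamma-activated (GAS) core, from 214 to 206 bases before the start. The Socs1 window (chr16:10785537-10785786, minus strand) holds a pair of overlapping interferon-stimulated response element (ISRE) cores, GAAAGAGAAA from 83 to 74 and GAAACCGAAA from 77 to 68 bases before the start.
Ifnb1: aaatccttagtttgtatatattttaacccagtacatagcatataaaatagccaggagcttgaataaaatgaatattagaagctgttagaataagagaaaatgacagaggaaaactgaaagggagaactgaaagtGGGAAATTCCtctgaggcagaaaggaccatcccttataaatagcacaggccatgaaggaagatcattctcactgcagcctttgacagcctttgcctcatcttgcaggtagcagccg
Ifnar2: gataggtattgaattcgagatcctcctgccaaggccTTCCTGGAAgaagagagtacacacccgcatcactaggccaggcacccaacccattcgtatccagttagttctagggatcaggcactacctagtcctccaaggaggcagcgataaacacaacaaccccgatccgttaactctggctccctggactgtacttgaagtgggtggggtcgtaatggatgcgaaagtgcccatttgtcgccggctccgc
Socs1: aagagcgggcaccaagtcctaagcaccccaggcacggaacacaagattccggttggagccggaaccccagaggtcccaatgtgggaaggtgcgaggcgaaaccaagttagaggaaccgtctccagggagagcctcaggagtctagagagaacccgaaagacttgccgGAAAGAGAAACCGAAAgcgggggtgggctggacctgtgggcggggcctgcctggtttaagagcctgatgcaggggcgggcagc

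Searched as GAAA, any 2 bases and GAAA, the ISRE core occurs in 2.98% of 32851 upstream windows of this length; the GAS core TTCNNNGAA occurs in 7.02% and the kappaB core, GGGA and TTCC with any 2 bases between them, in 1.21%. Among the other members, Ifng has a GAS core (TTCAGAGAA) and Ifngr2 a kappaB core on the opposite strand (GGAAAGTCCC). The windows of Ifnar1, Ifngr1, Jak1, Jak2 and Tyk2 hold none of these cores. Those of Ifnar1, Jak1 and Tyk2 reach into the gene spans given below, so they are not wholly upstream of them. A match describes the letters of the window only.

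Of the 8 tested genes, 3 rose in siPAK4 libraries (Socs1, Jak2 and Ifnar2), 1 fell (Ifngr1) and 4 were not past the threshold of an adjusted p of 0.05 (Ifnar1, Ifngr2, Jak1 and Tyk2). Among all 17975 genes tested, 26.9% were called, 12.4% higher and 14.5% lower. The siPAK4 and siControl libraries did not overlap for 5 of the 8, against 28.8% of all genes tested. The median log2 fold change of the 8 was 0.02 against 0.005 for all genes, and the median absolute log2 fold change was 0.20 against 0.19.

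**Figure D1:**
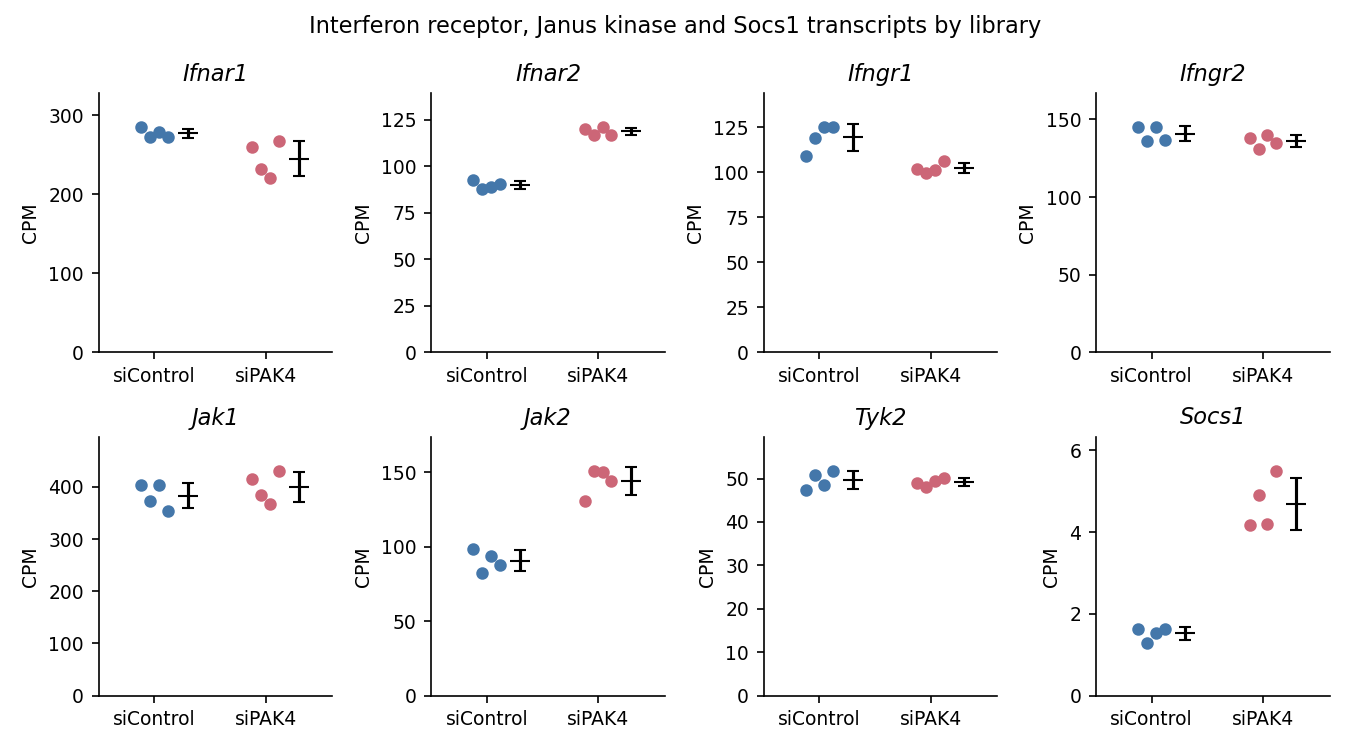
Level of each tested gene in every library, in CPM on a separate linear axis per panel, with points for the 4 siControl and 4 siPAK4 libraries and, beside them, the mean with 1 SD. Socs1, Jak2 and Ifnar2 sit higher in every siPAK4 library and Ifngr1 and Ifnar1 sit lower in every one, whereas the groups overlap for Ifngr2, Jak1 and Tyk2.

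Ifnb1 (NCBI gene 15977, chromosome 4, 88522025 to 88522794), the gene of interferon beta, was close to absent. It had 0, 0, 2 and 0 reads in siControl libraries 1 to 4 and 10, 13, 30 and 3 reads in siPAK4 libraries 1 to 4. Every siPAK4 library had more reads than any siControl library, and siPAK4 replicate 3 alone held 30 of the 56. Summed over libraries, 56 of 228494602 siPAK4 reads and 2 of 234005529 siControl reads fell on Ifnb1, a ratio of 28.7 with an exact 95% interval of 7.58 to 243 that covers counting error only. The siPAK4 libraries differed among themselves by more than counting error (chi-square per degree of freedom 8.78). The gene missed the filter on low counts, so it has no test in the main analysis. With no filter, edgeR's quasi-likelihood test gave a log2 fold change of 4.45 and an adjusted p of 0.011, which rests on these few reads and on 3 siControl libraries at 0. In fits that left out 1 library, the gene passed the filter only through its siPAK4 reads, and the fitted log2 fold change moved between 4.11 and 6.78, so these fits are not used here.

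Ifng (NCBI gene 15978, chromosome 10, 118441046 to 118445894) was read 4 times in all, each time in siControl replicate 3. The other 7 libraries had 0 reads, and a count of 0 allows up to 3 reads in a library. siControl replicate 3 was thus the siControl library that held every read of both ligands. Apart from Cd4, markers of T and NK cells, the usual source of interferon gamma, were at the edge of detection. With Cd4 included, the 15 markers summed to between 5.51 and 9.15 CPM in siControl and between 4.16 and 5.86 CPM in siPAK4 libraries. The marker with the highest level was Cd4, which fell from 4.1 ± 1.18 to 1.90 ± 0.377 CPM (adjusted p 0.0024). Cd4 was the only 1 of 10 tested markers to be called, and the other 9 were not past the threshold. Among those 9, Cd3g stood at 0.462 ± 0.0756 and 0.416 ± 0.11 CPM (adjusted p 0.75). Trac stood at 0.325 ± 0.071 and 0.41 ± 0.208 CPM (adjusted p 0.59). Whether Ifng differed between the groups was not detectable at this depth.

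The other interferon genes were as scarce. Of 19 further type I and type III ligands, 14 had no read in any library. The 18 that were not tested had 7 reads in siControl and 6 in siPAK4 libraries together. Only Ifnz, interferon zeta, passed the filter, with 4, 9, 15 and 5 reads in siControl and 15, 6, 11 and 12 reads in siPAK4 libraries. The groups overlapped, with a log2 fold change of 0.36 and an adjusted p of 0.63. Plasmacytoid dendritic cells, which make large amounts of interferon alpha, left little trace: Siglech was at 0.0348 ± 0.0403 CPM in siControl and 0 in every siPAK4 library, and Klk1 had no read. The 7 markers of these cells summed to between 3.09 and 5.76 CPM in siControl and between 2.96 and 4.37 CPM in siPAK4 libraries, most of it Runx2. Of the 2 markers tested, Runx2 did not pass (4.25 ± 1.21 and 2.89 ± 0.444 CPM, adjusted p 0.074). Cox6a2 rose from 0.374 ± 0.0635 to 0.793 ± 0.271 CPM (adjusted p 0.021), with overlapping groups.

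The type I receptor chains parted. Ifnar2 (NCBI gene 15976, chromosome 16, 91372783 to 91405589), the signalling chain that binds interferon with high affinity, stood at 92.6, 87.8, 88.8 and 90.6 CPM in siControl libraries 1 to 4 and at 120, 117, 121 and 117 CPM in siPAK4 libraries 1 to 4. All 4 siPAK4 libraries lay above all 4 siControl libraries, and both groups were tight. Ifnar2 rose by 31.8% (log2 fold change 0.40, SE 0.046, adjusted p 9.2e-05, edgeR). A noncoding gene, Gm36587, overlaps its first part but drew only 100 and 123 reads in the siControl and siPAK4 groups.

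Ifnar1 (NCBI gene 15975, chromosome 16, 91485032 to 91510523), the partner chain that carries TYK2, stood at 285, 273, 279 and 272 CPM in siControl and at 260, 232, 221 and 267 CPM in siPAK4 libraries. The groups did not overlap, but siPAK4 replicates 1 and 4 were close to the siControl libraries. Its log2 fold change was −0.18 (SE 0.066, 95% interval −0.32 to −0.03, adjusted p 0.068), so it did not pass the threshold. Without siPAK4 replicate 4 it did (−0.22, adjusted p 0.038), as it did by DESeq2 (−0.18, adjusted p 0.049), whereas on the deposited FPKM values the difference changed sign (0.03). Per transcript length, on the deposited TPM scale, Ifnar1 overlapped between the groups. The ratio of Ifnar2 to Ifnar1 in TPM was 1.04 ± 0.118 (SD, n = 4) in siControl and 1.41 ± 0.133 in siPAK4 libraries, with ranges of 0.888 to 1.17 and 1.30 to 1.59. The ratio was not tested.

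The interferon gamma receptor genes differed less. Ifngr1 (NCBI gene 15979, chromosome 10, 19591949 to 19610229), the ligand-binding chain, stood at 109, 119, 125 and 125 CPM in siControl and 102, 99.8, 101 and 106 CPM in siPAK4 libraries. The siPAK4 libraries were all lower, by a margin set by siControl replicate 1. Ifngr1 fell by 14.4% (log2 fold change −0.22, SE 0.057, adjusted p 0.013). Its call was lost on library totals (−0.14, adjusted p 0.086), on TPM (−0.18, adjusted p 0.059) and on FPKM (−0.13, adjusted p 0.13), with the direction kept. Ifngr2 (NCBI gene 15980, chromosome 16, 91547059 to 91564007), the chain that brings JAK2, stood at 145, 136, 145 and 137 CPM in siControl and 138, 131, 140 and 135 CPM in siPAK4 libraries. These values overlapped, with a log2 fold change of −0.05 (95% interval −0.16 to 0.06, adjusted p 0.48), and the sign turned on library totals and FPKM (0.04).

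Ifnar2, Il10rb, Ifnar1 and Ifngr2 lie in that order on chromosome 16 within 191 kb, with noncoding genes and pseudogenes between some of them. Il10rb, a chain of the interleukin 10 and interferon lambda receptors, stood at 104 ± 4.37 CPM in siControl and 93.3 ± 7.90 CPM in siPAK4 libraries (log2 fold change −0.16, adjusted p 0.089). Of these 4 receptor genes only Ifnar2 passed the threshold in the main analysis, and Ifnar2 alone had a positive log2 fold change there. Of the type III receptor chain and related class II receptors, 4 of 6 tested genes fell, 0 rose and 2 did not pass. Their median log2 fold change was −0.51, and among all genes tested 14.5% fell and 12.4% rose. Ifnlr1, the specific interferon lambda receptor chain, fell from 0.698 ± 0.113 to 0.310 ± 0.0164 CPM (−1.17 on the log2 scale, adjusted p 0.0045), a low level in both groups. F3, the tissue factor gene of the same protein family, fell from 12 ± 1.29 to 7.56 ± 1.37 CPM (adjusted p 0.0027). Il22ra1, the interleukin 22 receptor chain, fell from 5.61 ± 1.08 to 3.30 ± 0.977 CPM (adjusted p 0.017, and 0.059 without siControl replicate 2). Il10ra, a receptor chain typical of leukocytes, fell from 34.0 ± 2.69 to 26.7 ± 4.43 CPM (adjusted p 0.030), with overlapping groups and a call that was lost in 9 of 18 alternatives (adjusted p up to 0.11), among them library totals, FPKM and leaving out any 1 library other than siControl replicate 1 or siPAK4 replicate 3. The summed macrophage markers were lower as well, and their part in the fall of Il10ra was not tested. Il20rb did not pass (2.77 ± 0.173 and 3.56 ± 0.547 CPM, adjusted p 0.069).

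Among the kinases, Jak2 stood out. Jak2 (NCBI gene 16452, chromosome 19, 29251803 to 29313095), the kinase of IFNGR2 and of many hematopoietic cytokine receptors, stood at 98.4, 82.2, 93.8 and 87.8 CPM in siControl libraries 1 to 4 and at 131, 151, 150 and 144 CPM in siPAK4 libraries 1 to 4. Every siPAK4 library was above every siControl library. Jak2 rose 1.59-fold (log2 fold change 0.67, SE 0.068, 95% interval 0.52 to 0.82, adjusted p 3.6e-05, edgeR).

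Jak1 (NCBI gene 16451, chromosome 4, 101151974 to 101265282), which serves both receptors, stood at 403, 373, 404 and 354 CPM in siControl and 416, 384, 368 and 431 CPM in siPAK4 libraries. The groups overlapped across most of their range (log2 fold change 0.06, 95% interval −0.09 to 0.21, adjusted p 0.57). Tyk2 (NCBI gene 54721, chromosome 9, 21104068 to 21131393), the kinase of IFNAR1, stood at 47.4, 50.9, 48.6 and 51.8 CPM and at 48.9, 48.1, 49.4 and 50.2 CPM, and the siPAK4 values lay inside the siControl range. Its log2 fold change was −0.02 (95% interval −0.13 to 0.10, adjusted p 0.86), which turned to 0.07 on library totals and 0.03 on TPM. In TPM, Jak2 made up 18.3% ± 1.2 (SD, n = 4) of the summed level of the 3 kinases in siControl and 26.1% ± 2.51 in siPAK4 libraries, with ranges of 16.7% to 19.6% and 23.5% to 28.5%.

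**Figure D2:**
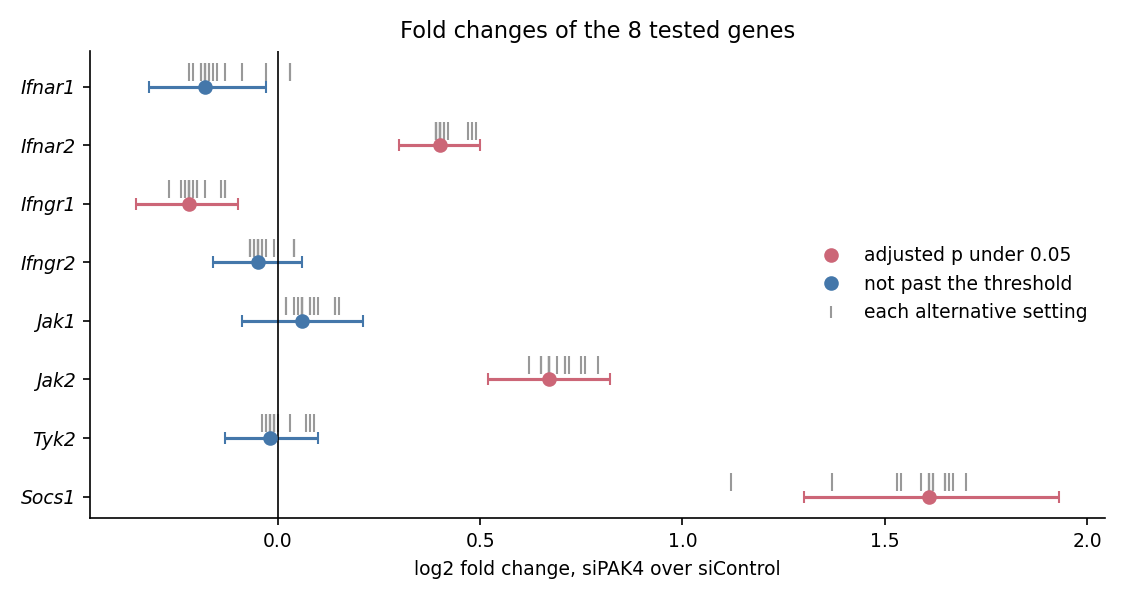
Log2 fold change of each tested gene, siPAK4 over siControl, with 95% intervals from edgeR's quasi-likelihood fit, ordered by role; grey ticks are the values under each alternative setting. The intervals of Socs1, Jak2 and Ifnar2 lie above 0, those of Ifngr1 and Ifnar1 below 0, and those of Ifngr2, Jak1 and Tyk2 include 0.

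Other receptors that signal through Janus kinases moved both ways. In a list of their subunits that also holds the fourth kinase, Jak3, 6 of 16 tested genes rose and 2 fell. Among all genes tested, 12.4% rose and 14.5% fell. The other 8 of the list were not past the threshold, and the median log2 fold change was 0.17. Jak3, the partner of the common gamma chain, was among the 8 (9.78 ± 1.18 and 12.2 ± 2.12 CPM, adjusted p 0.099), and is named after its values were seen. Csf2rb, the common beta chain for interleukin 3, interleukin 5 and GM-CSF, which uses JAK2, rose from 196 ± 21.7 to 348 ± 7.41 CPM (0.83 on the log2 scale, adjusted p 1.5e-05). Ghr, the growth hormone receptor, another JAK2 receptor, fell from 140 ± 6.87 to 87.0 ± 4.85 CPM (−0.68, adjusted p 1.2e-05). Il4ra, the interleukin 4 receptor chain, rose from 179 ± 5.69 to 245 ± 8.79 CPM (adjusted p 7.9e-05). Lifr, the receptor of leukemia inhibitory factor, rose from 44.0 ± 3.95 to 59.7 ± 3.33 CPM (adjusted p 0.00099). Osmr (60.6 ± 4.50 and 58.9 ± 7.96 CPM, adjusted p 0.80) and Il11ra1 (42.7 ± 3.29 and 42 ± 4.19 CPM, adjusted p 0.86) did not pass.

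Socs1 (NCBI gene 12703, chromosome 16, 10783808 to 10785536), the feedback inhibitor of the interferon receptors, had the largest change of the 8 tested genes. It had 91, 73, 90 and 93 reads in siControl libraries 1 to 4 and 241, 288, 252 and 323 reads in siPAK4 libraries 1 to 4. In CPM these were 1.64, 1.30, 1.53 and 1.64 and then 4.17, 4.90, 4.19 and 5.50. The groups were far apart, with the lowest siPAK4 library more than double the highest siControl library. Socs1 rose 3.06-fold (log2 fold change 1.61, SE 0.14, 95% interval 1.30 to 1.93, adjusted p 1.4e-05, edgeR). Its upstream window is the one with the overlapping ISRE cores shown above. siPAK4 replicate 4, with the fewest Ifnb1 reads of its group, had the highest Socs1 level. A link between the 2 genes across libraries was not tested.

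Of 19 other negative regulators of these receptors and kinases, all tested, 6 rose, 4 fell and 9 were not past the threshold. Their median log2 fold change was −0.12, and among all genes tested 12.4% rose and 14.5% fell. Usp18, which displaces JAK1 from IFNAR2 and is itself interferon-induced, rose from 27.5 ± 6.83 to 130 ± 9.96 CPM (2.24 on the log2 scale, adjusted p 3.1e-06). Socs3, the inhibitor of interleukin 6 family receptors, rose from 40.3 ± 6.56 to 75.7 ± 9.78 CPM (0.91, adjusted p 0.00021). Socs5 fell from 69.3 ± 5.08 to 48.7 ± 3.52 CPM (−0.51, adjusted p 0.00035). Ptpn1, a phosphatase of JAK2 and TYK2, fell from 94.6 ± 3.18 to 75.2 ± 6.01 CPM (−0.33, adjusted p 0.0024). Ptprc, the leukocyte phosphatase CD45 (252 ± 21.9 and 218 ± 50.9 CPM, adjusted p 0.28), and Cbl, a ubiquitin ligase (162 ± 13.1 and 144 ± 19.0 CPM, adjusted p 0.21), did not pass.

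Downstream of the kinases, 4 of 7 STAT and IRF9 genes rose, 1 fell and 2 were not past the threshold. Their median log2 fold change was 0.16, and among all genes tested 12.4% rose and 14.5% fell. Genes of the type I interferon transcription factor rose: Stat2 from 48.1 ± 11.4 to 93.1 ± 3.73 CPM (0.95 on the log2 scale, adjusted p 0.00029) and Irf9 from 43.5 ± 5.10 to 78.6 ± 2.91 CPM (0.85, adjusted p 1.9e-05). Stat3, which serves interleukin 6 family receptors, rose from 182 ± 3.32 to 221 ± 7.81 CPM (0.28, adjusted p 0.0014). Stat6, the factor of the interleukin 4 receptor, rose from 163 ± 4.32 to 182 ± 8.01 CPM (0.16, adjusted p 0.039), a call that was lost in 8 of 18 alternatives, among them leaving out any 1 library other than siPAK4 replicate 2 or 3, with adjusted p-values of up to 0.11. Stat5b (60.2 ± 2.34 and 63.8 ± 1.68 CPM, adjusted p 0.26) and Stat5a (17.6 ± 0.675 and 17.6 ± 1.26 CPM, adjusted p 0.99) did not pass.

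Upstream of the ligand, the genes of sensors, adaptors, kinases and transcription factors that switch on Ifnb1 split. Of 17, all tested, 4 rose, 6 fell and 7 were not past the threshold. Their median log2 fold change was 0.09, and among all genes tested 12.4% rose and 14.5% fell. The genes that rose include sensors and a factor that are also interferon-induced. Irf7, the transcription factor that amplifies interferon genes, rose from 37.7 ± 11.3 to 191 ± 9.58 CPM (2.34, adjusted p 1.1e-05). Ifih1, the double-stranded RNA sensor MDA5, rose from 50.3 ± 10.3 to 115 ± 2.49 CPM (1.19, adjusted p 3.1e-05). Ddx58, the RNA sensor RIG-I, rose from 107 ± 15.0 to 206 ± 5.18 CPM (0.95, adjusted p 1.6e-05). Tbk1, the kinase that activates IRF3, rose from 89.1 ± 3.18 to 115 ± 6.84 CPM (0.37, adjusted p 0.00064). The 6 genes that fell were named after their values were seen. They include Tlr9 (−0.95, adjusted p 0.0042), Irf5 (−0.44, adjusted p 0.0086) and Ticam1 (−0.35, adjusted p 0.025). Tlr7 (−0.29, adjusted p 0.036), Mavs (−0.24, adjusted p 0.011) and Tmem173 (−0.23, adjusted p 0.0084) make up the rest. Tlr4, the lipopolysaccharide receptor (298 ± 27.3 and 331 ± 23.8 CPM, adjusted p 0.17), and Traf3 (80.9 ± 5 and 76.2 ± 5.99 CPM, adjusted p 0.39) did not pass.

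The effector genes that interferons induce moved together. Of 42, all tested, 39 rose, 1 fell and 2 were not past the threshold, with a median log2 fold change of 1.21. Among all genes tested, 12.4% rose and 14.5% fell. The list overlaps with genes known from earlier results of these data to be higher, so its direction is not independent evidence. The 4 with the smallest adjusted p were Tap1, the peptide transporter of class I antigen presentation (51.9 ± 1.97 to 101 ± 1.14 CPM, adjusted p 9.9e-07), the guanylate-binding genes Gbp2 (49.1 ± 3.17 to 108 ± 7.07 CPM, adjusted p 1.2e-06) and Gbp3 (39.4 ± 7.34 to 122 ± 7.58 CPM, adjusted p 3.9e-06), and Oasl1, an antiviral 2′-5′ oligoadenylate synthetase-like gene (12.5 ± 2.50 to 45.0 ± 4.20 CPM, adjusted p 3.9e-06). The 3 genes of the list that did not rise were Cxcl9, Irf8 and Ciita. Cxcl9, a chemokine, stood at 2.01 ± 0.424 and 1.55 ± 0.310 CPM (log2 fold change −0.38, adjusted p 0.18). Irf8, a transcription factor of myeloid cells, stood at 66.0 ± 3.17 and 71.5 ± 3.29 CPM (0.12, adjusted p 0.16). Ciita, the switch of class II antigen presentation and the gene of the list that fell, went from 3.46 ± 0.368 to 1.97 ± 0.384 CPM (−0.81, adjusted p 0.0033). It was named after its values were seen.

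The summed level of the effector genes was 2412, 1939, 2255 and 1832 CPM in siControl libraries 1 to 4 and 4299, 4328, 4321 and 4046 CPM in siPAK4 libraries 1 to 4. The siPAK4 sums lay within a narrow band while their Ifnb1 reads ran from 3 to 30, and the library with the fewest reads had the lowest sum. In siControl, replicate 1 had the highest sum with 0 Ifnb1 reads, and a count of 0 allows up to 3 reads in a library. A link between Ifnb1 reads and the sum was not tested.

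**Figure D3:**
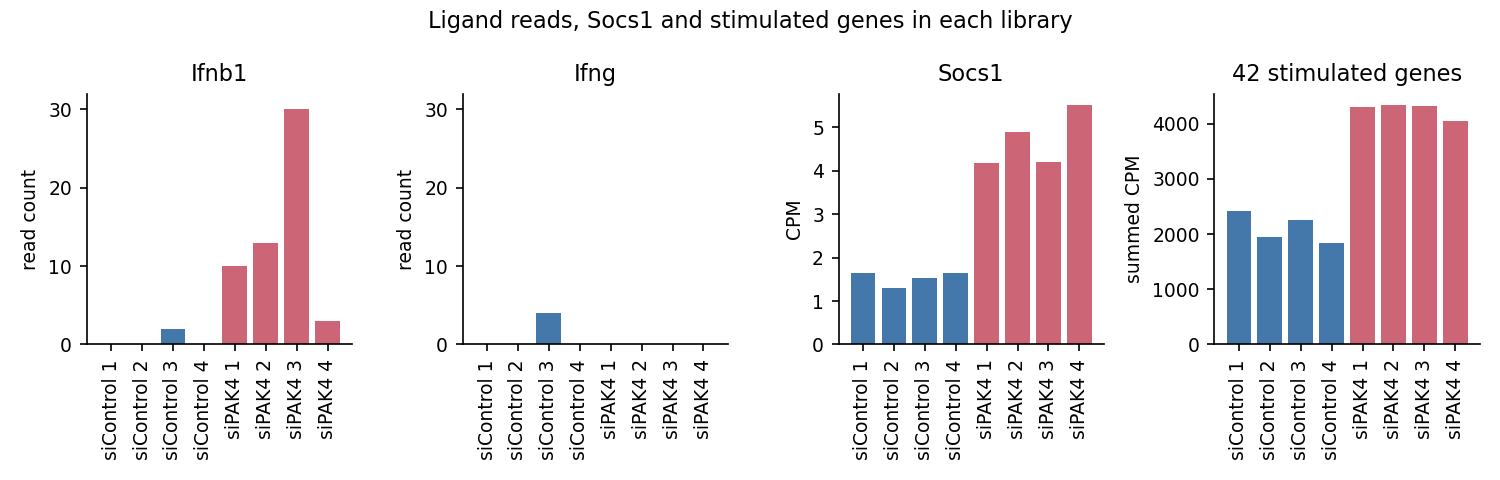
Reads of Ifnb1 and Ifng, Socs1 level in CPM and the summed CPM of 42 interferon-stimulated effector genes in each of the 8 libraries. Ifnb1 reads are scattered from 3 to 30 in siPAK4 libraries, and the effector sum lies between 4046 and 4328 CPM in all 4.

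**Figure D4:**
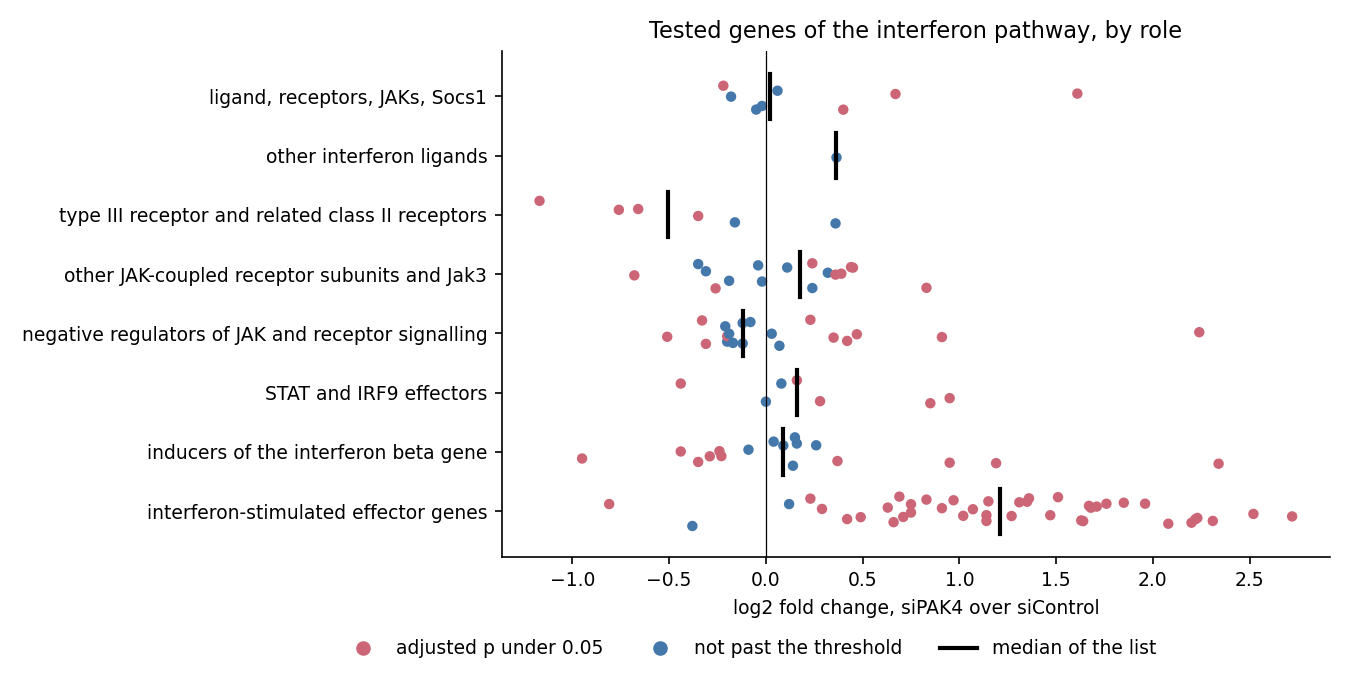
Log2 fold change of every tested gene of the members and of 7 further lists, 1 point per gene, coloured by whether the adjusted p was under 0.05, with the list median as a bar. The effector genes lie mostly right of 0 with a median of 1.21, whereas the members have a median of 0.02.

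Over the 7 further lists, 77 of 108 tested genes passed the threshold, 59 higher and 18 lower, with 26.9% called among all genes tested. The 42 effector genes gave 39 of the 59 and 1 of the 18. Since they were chosen with earlier results known, the pooled count is not independent evidence either. Per transcript length, the members kept nearly the same order in both groups. In siControl libraries the TPM levels ran from Jak1 (159 ± 11.9) and Ifngr2 (143 ± 7.76), whose libraries overlapped, through Ifngr1 (121 ± 6.03) to Ifnar2 (105 ± 5.88) and Ifnar1 (101 ± 6.38), which also overlapped. Jak2 (40.7 ± 5.28), Tyk2 (22.4 ± 0.590) and Socs1 (2.46 ± 0.194) followed, each apart from its neighbours, and the ligands were last at 0.0230 TPM (Ifng) and 0.0118 TPM (Ifnb1). In siPAK4 libraries Ifnar2 (140 ± 5.91 TPM) stood above Ifngr1 (106 ± 6.44 TPM) and overlapped with Ifngr2 (142 ± 7.73 TPM). Jak1 (169 ± 17.5 TPM) stayed at the top and overlapped with Ifngr2, and Ifnar1 (99.6 ± 10.6 TPM) overlapped with Ifngr1. Jak2 was at 67.5 ± 6.45 TPM, Tyk2 at 22.9 ± 1.17 TPM, Socs1 at 7.98 ± 1.33 TPM and Ifnb1 at 0.629 ± 0.511 TPM, with Ifng at 0. Even after its rise, Socs1 was at 0.119 ± 0.0206 of the Jak2 level (TPM over TPM), against 0.0608 ± 0.00468 in siControl libraries.

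For each called member, the 3 genes of most similar pattern were found among tested genes with a mean of at least 5 CPM. The measure was the root mean square difference of centred log2 CPM over the 8 libraries. As these members were called for a group difference, genes of similar fold change come out closest almost by construction. Shared regulation was not tested. Ifnar2 was closest to Psme1, an immunoproteasome activator subunit (0.029), Traf1, a TNF receptor adaptor (0.031), and 9130401M01Rik (0.032). Ifngr1 was closest to Dffa, the inhibitor of the apoptotic nuclease (0.019), Hfe, the hemochromatosis protein (0.026), and Bop1, a ribosome biogenesis factor (0.036). Jak2 was closest to Ifrd1 (0.051), the peroxiredoxin Prdx6 (0.053) and the copper transporter Slc31a2 (0.053). Socs1 had looser neighbours: the platelet chemokine Ppbp (0.146), the uridine phosphorylase Upp1 (0.151) and the guanylate-binding gene Gbp9 (0.173). Socs1 itself, at 1.53 ± 0.16 and 4.69 ± 0.639 CPM, lay below the 5 CPM asked of its neighbours. The part of its own counting noise in these distances was not tested.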

How the data were processed

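Polyadenylated RNA of 8 libraries was measured. Per the file headers, the deposited table gives 45777 genes with raw read counts, which are not normalized. It also gives deposited FPKM, scaled by the authors to library depth and transcript length, and deposited TPM, brought by the authors to a common total. The submitters' processing notes name StringTie 2.1.3b, HISAT2 2.1.0, Bowtie2 2.3.4.1, bcl2fastq 2.20.0, FastQC 0.11.7 and genome build mm10. How reads were counted, with or without strand, is not given in the sources used here, so overlapping genes may share reads. All columns were matched to samples, with 0 left over.

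Counts were tested across all genes with edgeR 4.0.16 (R 4.3.3): filterByExpr (minimum count 10), TMM, robust quasi-likelihood test, Benjamini-Hochberg adjustment over 17975 genes, threshold 0.05. Standard errors come from the F statistic. The members and lists were chosen with earlier results of these data known. Genes named are all members, Pak4, and, per list, up to 4 called genes with the smallest adjusted p and up to 2 uncalled genes with the highest CPM; marker genes come from the 3 with the highest CPM per list. Other genes are said to be chosen after their values were seen; Lrat, Siglech and Klk1 are defining markers. The procedure was tested on simulated data. Within groups, pairs of libraries differed by more than sampling noise (chi-square per degree of freedom 12.7 to 67.8). Every pair with siPAK4 replicate 3 was at 47.5 or above, and every other pair was at 32.3 or below. Alternatives were library totals, DESeq2 1.42.0, limma 3.58.1 voom, other filters, TPM and FPKM, a replicate block, and leaving out each library. Coordinates and upstream windows are RefSeq's (GRCm38.p6), counted from 1. Protein sequences are not used here, and 1 gene of the STAT list is not reported here.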

Additional observations from a re-analysis of the deposited data

Results flagged for a closer look

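In groups of 4 libraries, a library was listed when its gap to the nearest other exceeded Dixon's 95% critical share of the group's range. This held for 13 of 131 groups examined, and chance gives about 1 in 20. Both ligands were listed for siControl replicate 3, with 0.0339 CPM of Ifnb1 (2 reads) and 0.0679 CPM of Ifng (4 reads) against 0 in the other siControl libraries. With the others at 0, any read at all would have been listed, so these entries do not mark an unusual library. The same library had the highest Ghr level of its group (150 CPM, others 135 to 137). In siControl replicate 4, Socs5 (61.7 CPM), Adgre1 (359 CPM) and Runx2 (2.44 CPM) were low and Irf8 (70.8 CPM) was high.

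In siPAK4 replicate 3, the library with most Ifnb1 reads, Il11ra1 (48.2 CPM), Ptprc (294 CPM) and Stat5a (19.4 CPM) were high. The same library had the highest macrophage sum of its group (8768 CPM), and the part of that in these values was not tested. In siPAK4 replicate 1, Pdgfra (86.2 CPM) and Trf (213 CPM) were low, and in siPAK4 replicate 4 Stat3 was high (233 CPM).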

How the results depend on the processing

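Ifnar2 (log2 fold change 0.39 to 0.49), Jak2 (0.62 to 0.79) and Socs1 (1.12 to 1.70) kept their calls and direction under every alternative run. Of the 8 tested members, 3 to 5 were called over 10 other settings and 4 to 5 over 8 fits that each left out 1 library, with Ifnar1 added without siPAK4 replicate 4. Ifnb1, which passed the filter in some of these fits only through its siPAK4 reads, is left out of these counts. All called genes numbered 3815 to 5736 and 3543 to 5494 in the same fits, and called list genes 68 to 79 and 68 to 82. On library totals, 3877 genes were higher and 1859 lower (67.6% higher, against 46.1% with TMM, 52.7% on TPM and 67.7% to 67.8% on FPKM). The largest shift of the median over all genes was 0.094, on library totals.

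Over 63 genes and 1129 comparisons with the main values, 1027 kept direction and call, 48 lost the call, 22 gained it and 32 turned sign; 0 genes past the threshold turned. Those that turned to positive values did so on library totals for Ifngr2 (0.04), Tyk2 (0.07), Osmr (0.05), Il11ra1 (0.06), Stat5a (0.09) and Traf3 (0.00). On TPM they were Tyk2 (0.03), Il11ra1 (0.01) and Stat5a (0.02), and on FPKM Ifnar1 (0.03), Ifngr2 (0.04), Tyk2 (0.08 and 0.09), Osmr (0.04), Il11ra1 (0.06 and 0.07) and Stat5a (0.06 and 0.08). The filter at a mean of 1 CPM turned Stat5a (0.00). Leaving out 1 library at a time gave −0.09 to 0.05 for Osmr, −0.10 to 0.01 for Il11ra1, −0.06 to 0.02 for Stat5a, −0.25 to 0.02 for Cd3g and −0.04 to 0.00 for Tyk2. The cause was not tested.

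With the replicate number as a block, 4587 genes were called (2056 higher, 2531 lower), 4 members and 77 list genes. Same-numbered libraries did not all deviate together (correlations 0.0348, −0.0473, 0.104 and −0.0372), and not every library correlated best with its own number, so the numbers were not taken as pairs. For Ifnb1 and Ifng depth is the limit: with no filter, Ifng had a log2 fold change of −3.17 and an adjusted p of 0.31.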

Other observations

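Other members of the SOCS family did not follow Socs1 and Socs3 as a group. Cish, the STAT5-induced member, stood at a log2 fold change of 0.47 (adjusted p 0.0056) and Socs7 at 0.23 (adjusted p 0.021), both higher in siPAK4 libraries. Socs2 (−0.08), Socs4 (−0.20) and Socs6 (0.07) did not pass the threshold, and Socs5 fell. These genes were named after their values were seen.

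Among untested ligands, every read of Ifna11 (1) and Ifna13 (2) lay in siControl replicate 1, and both reads of Ifne lay in siPAK4 replicate 3. Ifnab had 4 reads in siControl replicate 3 and 4 in siPAK4 replicate 1. These genes too were named after their values were seen.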
